A study of Mus musculus with 16 samples.

Results

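The 3 angiomotin genes Amot, Amotl1 and Amotl2, the 3 Ajuba family genes Ajuba, Limd1 and Wtip, and the phosphatase gene Ptpn14 were followed through RNA, open chromatin, an active histone mark and Tead binding in progenitors of the mouse organ of Corti. The 7 genes were found by symbol among the 48709 genes of the RNA tables, and all 7 passed the filter on low counts, as did 15982 genes in all. Around them, within 50 kb of each gene, lay 252 of 335380 merged ATAC regions, 151 of 267936 H3K27ac regions and 71 of 74967 Tead regions. The later cells were taken from the cochlea at E13.5 and sorted for p27-GFP, and the earlier cells were taken at E12.0 and sorted for Sox2-GFP. Embryonic age and sorting reporter changed together, so each difference between the stages belongs to both. RNA was measured in 2 libraries per stage, ATAC in 3 per stage, H3K27ac by CUT&RUN in 2 per stage, and Tead by CUT&RUN with a pan-Tead antibody in 2 libraries of E12.0 cells, 16 libraries in all. The reporters mark cells by Sox2 or p27 (Cdkn1b) expression, and the labels give no further allele or strain for these groups. Nothing in the labels ties replicates to different litters or animals, and the p-values below therefore reflect variation among the libraries at hand, which may be technical.

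On GRCm38, Amot spans chrX:145446424-145505966, Amotl1 chr9:14541966-14662974, Amotl2 chr9:102717091-102733418 and Limd1 chr9:123478661-123521552. Ajuba spans chr14:54567469-54577661, Wtip chr7:34109547-34133268 and Ptpn14 chr1:189728216-189876695, all per RefSeq.

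Yap and its relative Taz switch on genes together with the DNA-binding Tead proteins, and the Hippo kinases Lats1 and Lats2 keep them out of the nucleus. Angiomotins sit at tight junctions and on actin, bind Yap directly and can hold it in the cytoplasm. Ajuba, Limd1 and Wtip are LIM-domain proteins of adherens junctions that bind Lats kinases and limit their activity, while Ptpn14 binds Yap and holds it outside the nucleus. Several of these genes, Ajuba, Amotl2 and Ptpn14 among them, are also known as Yap and Tead targets in other cells, so they can act as both regulators and outputs. In the cochlea, p27 marks the prosensory cells as they leave the cell cycle, and the series' title names Yap and Tead in the self-renewal of these progenitors.

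The promoters of 3 of the genes are shown because they differ in how often they hold CATTCC, the core of the Tead recognition motif. Each runs 5′ to 3′ on the gene's strand, from 250 bases before the tabulated start to 50 bases after it, as given by RefSeq for GRCm38.p6. Capitals mark CATTCC, or GGAATG where the match lies on the other strand. The Wtip window is chr7:34133219-34133518 (minus strand), the Ajuba window chr14:54577612-54577911 (minus strand) and the Amotl2 window chr9:102717554-102717853 (plus strand).
Wtip: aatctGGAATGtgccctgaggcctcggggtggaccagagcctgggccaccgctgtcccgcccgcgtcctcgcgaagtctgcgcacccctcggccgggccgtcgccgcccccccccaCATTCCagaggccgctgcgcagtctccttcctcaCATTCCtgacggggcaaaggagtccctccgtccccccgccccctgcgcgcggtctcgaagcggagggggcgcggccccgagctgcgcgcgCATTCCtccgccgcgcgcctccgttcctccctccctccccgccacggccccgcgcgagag
Ajuba: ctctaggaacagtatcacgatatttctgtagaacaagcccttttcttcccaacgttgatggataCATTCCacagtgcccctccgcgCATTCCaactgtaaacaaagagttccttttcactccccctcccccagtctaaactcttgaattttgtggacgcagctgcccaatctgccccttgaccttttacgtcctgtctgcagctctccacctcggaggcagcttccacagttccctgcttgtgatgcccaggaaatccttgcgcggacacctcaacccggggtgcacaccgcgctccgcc
Amotl2: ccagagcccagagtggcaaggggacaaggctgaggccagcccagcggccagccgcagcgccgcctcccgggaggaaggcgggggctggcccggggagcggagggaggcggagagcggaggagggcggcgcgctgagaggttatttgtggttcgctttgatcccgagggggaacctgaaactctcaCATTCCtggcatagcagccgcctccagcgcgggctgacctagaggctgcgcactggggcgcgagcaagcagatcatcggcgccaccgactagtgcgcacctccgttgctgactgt

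Wtip held 4 matches, 3 on its own strand and 1 on the other, beginning 245, 134, 100 and 10 bases before the start. Ajuba held 2 matches, 186 and 164 bases before the start. Amotl2 and Ptpn14 held 1 match each, 65 and 146 bases before the start, and Amotl1 and Amot held none. The Amot window, chrX:145487590-145487889, lay inside the gene's span and overlapped no ATAC peak, so it may not be the start used in these cells. Its lack of a match therefore need not hold for the active Amot promoter. A window was found for 6 of the 7 genes, all but Limd1. Of 21263 windows of protein-coding genes, 13.6% held at least 1 match on either strand, 1.14% at least 2 and 0.00941% (2 windows) at least 4. None of the 6 windows held TGANTCA, the AP-1 motif, searched the same way and present in 6.99% of the protein-coding windows. These matches describe letters only and say nothing of binding.

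With the counts scaled between libraries by TMM, 4 of the 7 genes had lower RNA at E13.5 than at E12.0, 1 had higher RNA, and 2 did not pass the test. Amot, Amotl1, Ajuba and Ptpn14 were the lower ones, by 2.77-fold to 5.16-fold, Wtip was 3.11-fold higher, and Amotl2 and Limd1 were not called. Both families therefore held members that moved and a member that did not pass. Calls rest on edgeR's quasi-likelihood test with an adjusted p threshold of 0.05. The background was high, since 23.5% of all genes tested were lower and 22.4% higher, 45.9% together. In sorted cells measured in bulk, fewer cells of a type and less RNA per cell cannot be told apart.

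**Figure D1:**
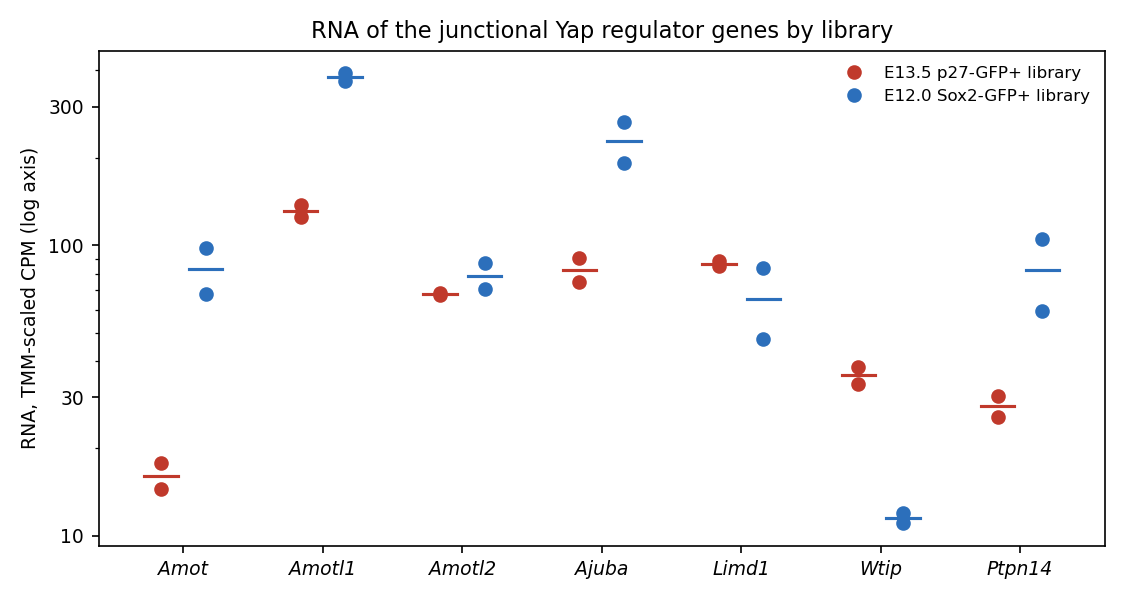
RNA of the 7 genes in each library, in TMM-scaled CPM on a log axis, with a horizontal line at each stage mean (E13.5 red, left; E12.0 blue, right; 2 libraries per stage). Amot, Amotl1, Ajuba and Ptpn14 lie lower at E13.5, Wtip lies higher, and the points of Amotl2 lie close together. The Limd1 points are at 85.0 and 88.2 in E13.5 cells and spread between 47.6 and 83.5 in E12.0 cells.

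Among the angiomotins, Amot changed the most. Amot, which encodes the founding member of the family, had 17.8 and 14.5 CPM (TMM-scaled reads per 1000000) in the E13.5 libraries, against 68.2 and 98.1 CPM in the E12.0 libraries. The groups did not overlap, and the highest E13.5 library lay far below the lowest E12.0 library. Its log2 fold change was -2.37 ± 0.31 (SE, n = 2 per stage, edgeR adjusted p = 0.000217). Amotl1, a junctional relative that also binds Yap, had 138 and 126 CPM at E13.5, against 369 and 391 CPM at E12.0. Replicates lay close together at both stages, and Amotl1 changed by -1.53 ± 0.24 on the log2 scale (SE, edgeR adjusted p = 0.000608).

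Amotl2, the angiomotin best known as a Yap target in other cells, had 67.5 and 68.8 CPM at E13.5, against 70.6 and 86.9 CPM at E12.0. The E13.5 values lay just under the lower E12.0 value. Its log2 fold change of -0.21 ± 0.25 (SE) was smaller than its error and was not called (edgeR adjusted p = 0.522). Missing the threshold does not show that Amotl2 stayed level.

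The Ajuba family moved in both directions. Ajuba, a LIM protein recruited to junctions under tension, had 90.4 and 74.8 CPM at E13.5, against 193 and 265 CPM at E12.0, with no overlap. Its log2 fold change was -1.47 ± 0.26 (SE, edgeR adjusted p = 0.00137). Wtip, first described as a partner of the Wilms tumour protein WT1, had 38.3 and 33.4 CPM at E13.5, against 11.97 and 11.1 CPM at E12.0. It was the only one of the 7 genes called higher, at 1.64 ± 0.34 on the log2 scale (SE, edgeR adjusted p = 0.00298). This call rested on 804 and 789 reads at E13.5 and on 87 and 94 reads at E12.0, the fewest of the 7 genes at that stage.

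Limd1, which like Ajuba binds Lats kinases, had 85.0 and 88.2 CPM at E13.5, against 47.6 and 83.5 CPM at E12.0. The E12.0 libraries stood apart from each other, and the higher one lay just under the lower E13.5 value. The log2 fold change was 0.40 ± 0.30 (SE), not called (edgeR adjusted p = 0.295). It ranged from 0.03 to 0.86 as 1 library at a time was left out, and was called in none of those fits. Ptpn14, the phosphatase, had 30.2 and 25.8 CPM at E13.5, against 59.7 and 105 CPM at E12.0. Its log2 fold change was -1.56 ± 0.32 (SE, edgeR adjusted p = 0.00306), and the wide spread at E12.0 moved it between -1.93 and -1.10 as libraries were left out.

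The genes of a library share its scaling, so the balance between relatives can be read inside each library without any scaling between libraries. The count of Wtip over that of Ajuba was 0.423 and 0.447 at E13.5, against 0.0621 and 0.0417 at E12.0, an 8.54-fold higher ratio at E13.5. For Limd1 over Ajuba the ratios were 0.939 and 1.18 at E13.5 and 0.247 and 0.315 at E12.0, 3.77-fold higher at E13.5. Among the angiomotins, Amotl2 over Amot stood at 3.79 and 4.76 at E13.5 and at 1.03 and 0.886 at E12.0, and Amotl2 over Amotl1 at 0.490 and 0.548 at E13.5 and at 0.191 and 0.222 at E12.0. None of these 4 ratios overlapped between the stages. Each divides a gene not called lower by one called lower (Ajuba, Amot or Amotl1), so the separation largely restates those calls. The share of all gene pairs that separate in this way was not computed. An exact permutation test of 2 against 2 libraries cannot give a two-sided p below 0.333, so no test is given for them.

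**Figure D2:**
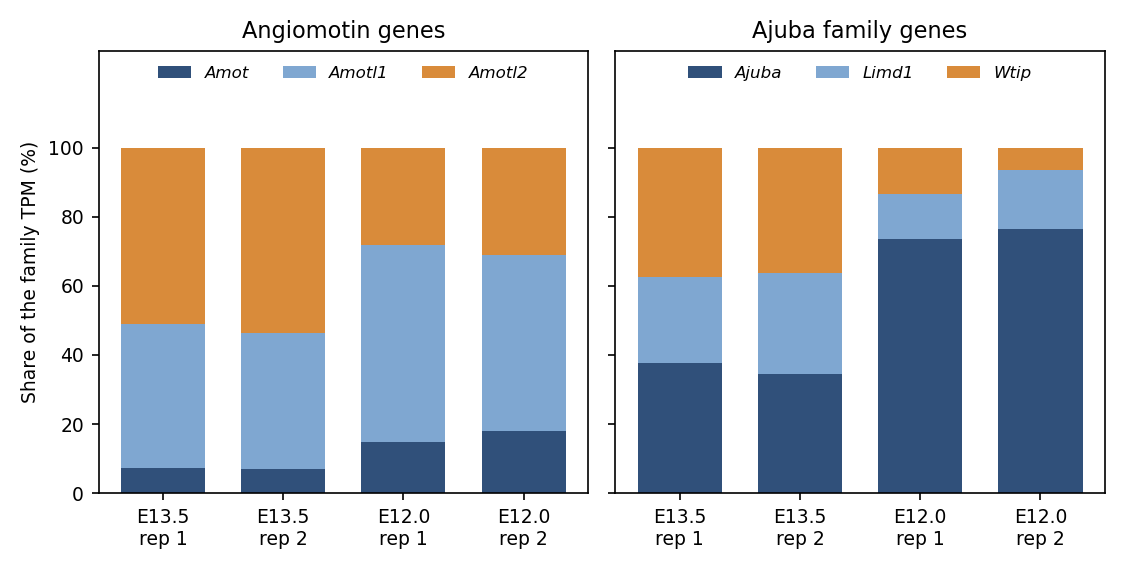
Share of each gene in the summed length-scaled RNA (TPM, in %) of the angiomotin family (left panel) and the Ajuba family (right panel), 1 bar per library, E13.5 libraries left of E12.0 libraries. Amotl2 takes 51.1 and 53.5% of its family at E13.5 and 28.2 and 31.0% at E12.0, and Ajuba takes 37.6 and 34.6% of its family at E13.5 and 73.6 and 76.3% at E12.0.

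Per transcript length, in TPM (transcripts per 1000000), the order of the angiomotins differed between the stages. Amotl2 led the angiomotins at E13.5 with 43.8 and 42.8 TPM, ahead of Amotl1 with 35.7 and 31.7 TPM and Amot with 6.30 and 5.52 TPM. At E12.0, Amotl1 led with 46.8 and 62.2 TPM, ahead of Amotl2 with 23.1 and 37.8 TPM and Amot with 12.1 and 22.02 TPM. These orders held in both libraries of a stage. In shares of the family's TPM, Amot took 7.34 and 6.90% at E13.5 and 14.7 and 18.1% at E12.0, and Amotl1 took 41.6 and 39.6% at E13.5 and 57.1 and 51.0% at E12.0.

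In the Ajuba family, Ajuba with 60.6 and 48.9 TPM and Wtip with 60.2 and 51.5 TPM had overlapping levels at E13.5, followed by Limd1 with 40.5 and 41.1 TPM. Ajuba led at E12.0 with 63.4 and 110 TPM, well above Limd1 with 11.2 and 24.8 TPM and Wtip with 11.6 and 9.46 TPM, whose levels did not keep an order between libraries. Wtip made up 37.3 and 36.4% of the family at E13.5 and 13.48 and 6.54% at E12.0, and Limd1 25.1 and 29.0% at E13.5 and 13.0 and 17.2% at E12.0. The effective length behind the TPM of Wtip, per the deposited tables, was 1411 and 1409 bases at E13.5 and 1139 and 1637 bases at E12.0, so its E12.0 levels are less certain than its counts. Ptpn14 had 8.03 and 6.12 TPM at E13.5 and 6.59 and 14.2 TPM at E12.0, and was with Amot the lowest of the 7 genes at E13.5. In E12.0 cells, replicate 2 had the higher TPM of the pair for 6 of the 7 genes, all but Wtip.

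How many of these genes were called depended on the scale. On log2(TPM + 1) with limma, the median of all tested genes stood at 0.76, against 0.05 with TMM, and 42.7% of genes were called higher and 13.1% lower. There, 1 of the 7 genes was lower, Amot (-1.33 ± 0.44, SE, limma adjusted p = 0.0280), and 2 were higher, Wtip (2.30 ± 0.33, limma adjusted p = 0.000451) and Limd1 (1.24 ± 0.40, limma adjusted p = 0.0256). Amotl1 at -0.67, Ajuba at -0.61 and Ptpn14 at -0.42 kept their sign without passing, and Amotl2 turned to 0.53. Relative to the median of all genes on that scale, the values were -2.09 for Amot, -1.42 for Amotl1, -0.22 for Amotl2, -1.37 for Ajuba, 0.48 for Limd1, 1.55 for Wtip and -1.18 for Ptpn14. Each kept the sign it had with TMM, and Ptpn14 (-1.56 with TMM) and Amot (-2.37 with TMM) differed the most. The effective length behind the TPM of Ptpn14 was 8344 and 9137 bases at E13.5 and 10007 and 10375.5 bases at E12.0. Amot and Wtip were called under each of the 11 settings beside the main one, while the lower calls of Amotl1, Ajuba and Ptpn14 hold relative to TMM or a like scaling of counts, under 9 of the 11.

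**Figure D3:**
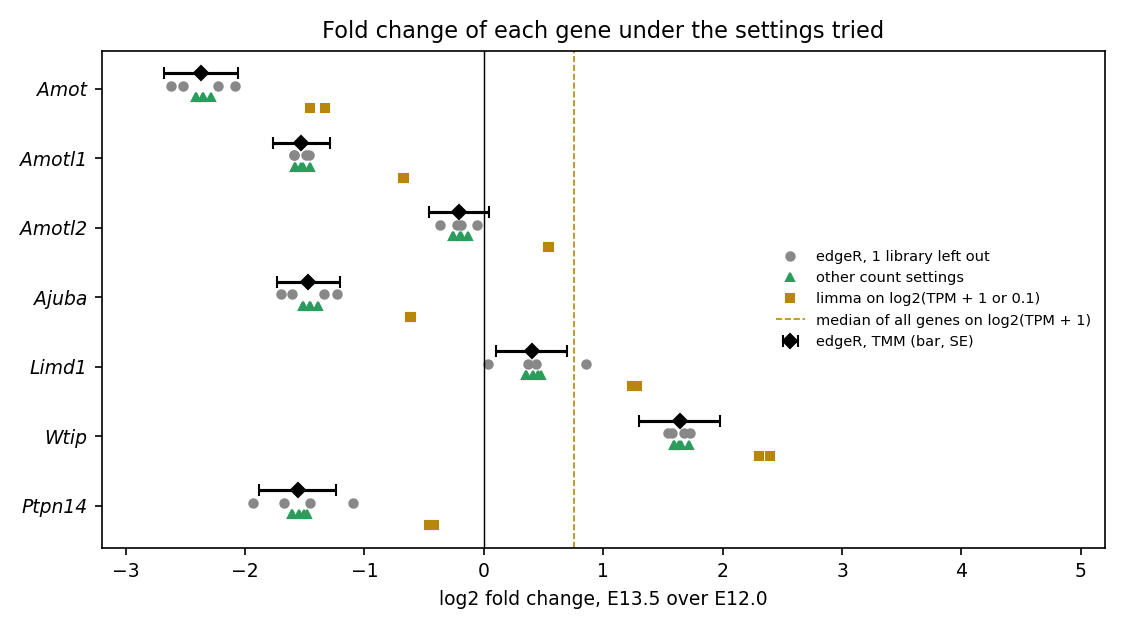
Log2 fold change (E13.5 over E12.0) of each of the 7 genes under the settings tried, with edgeR and TMM as a diamond with its SE, fits with 1 library left out as circles, other count settings as triangles and limma on log2(TPM + 1 or 0.1) as squares. The squares lie to the right of the other marks for all 7 genes, and the dashed line marks the median of all genes on log2(TPM + 1), at 0.76.

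The RNA libraries also differed in ways that moved with the stage. Summed rounded counts were 17057725 and 19570863 at E13.5 and 9412287 and 9810541 at E12.0. The mitochondrial ribosomal RNA mt-Rnr2 took 0.295 and 0.18% of counts at E13.5 against 17.0 and 13.2% at E12.0, and its part in the 7 genes' values was not tested beyond a fit without mitochondrial genes, which kept all 5 calls. The gap between gene length and effective length, which follows fragment size, had a median of 189 and 188 bases in E13.5 libraries and 146 and 141 bases in E12.0 libraries, and its part was not tested. Of 13 prosensory markers, 7 were higher and 2 lower, with Sox2 at 2.07 ± 0.25 and Cdkn1b at 4.65 ± 0.30 on the log2 scale (SE), and none was at 0 at either stage. Of 6 otic epithelial markers, 1 was higher and 2 were lower. Summed blood, endothelial and mesenchymal markers stayed at or below 5.33 CPM in each library, with Hba-a1, Csf1r, C1qa, Tek, Emcn, Pou3f4 and Tbx18 at 0 in both E12.0 libraries and C1qa at 0 in both E13.5 libraries. Melanocyte markers summed to 4.67 and 27.9 CPM at E13.5 and 4.26 and 3.30 CPM at E12.0 (Dct, Tyr, Tyrp1 and Mlana at 0 at E12.0), neuronal markers to 25.1 and 20.8 CPM at E13.5 and 34.7 and 44.3 CPM at E12.0 (Neurog1 at 0 at E13.5), and glial and neural crest markers to 646 and 681 CPM at E13.5 and 1792 and 2102 CPM at E12.0. That last sum was mostly Erbb3, at 435 and 457 CPM in E13.5 cells and 1708 and 2004 CPM in E12.0 cells, which was lower, while Sox10, at 181 and 202 CPM in E13.5 cells and 49.5 and 51.8 CPM in E12.0 cells, and Cdh19 were the 2 higher of the 4 tested (edgeR). Of 5 neuronal markers tested, 1 was called, Neurod1, which was lower, with 0 and 0.042 CPM at E13.5 and 7.84 and 13.7 CPM at E12.0. The part of these markers' cells in the 7 genes' RNA was not tested. Leaving out either E13.5 library, the one with the higher melanocyte sum included, kept the 4 lower calls and the 1 higher call.

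The gene whose pattern over the 4 RNA libraries was nearest to that of Amotl1 was Yap1 itself. Likeness was the root mean square difference of gene-centred log2 CPM over these 4 libraries, among 76 candidates from the pathway lists and the other members, and Yap1 differed from Amotl1 by 0.118. Sav1, the scaffold of the Hippo kinases, was nearest to Amot at 0.185, and the junction protein gene Ctnnb1 came next at 0.256. Ajuba and Ptpn14 were each among the nearest 2 of the other, at 0.129, with Tjp1 next for Ajuba at 0.138 and Ptpn3 nearest to Ptpn14 at 0.126. Wtip was nearest to Jup at 0.161 and Wwc1 at 0.192, Limd1 to Tnks2 at 0.0892 and Stk4 at 0.124, and Amotl2 to Usp9x at 0.157 and Ptpn21 at 0.163. With only 4 libraries in 2 stages, this measure mostly orders genes by their stage difference.

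Set against Yap1 in the same library, the counts of Amotl1 stood at 1.41 and 1.20 times those of Yap1 at E13.5 and at 1.46 and 1.45 times at E12.0. These Amotl1 ratios did not overlap between the stages. Amot over Yap1 was 0.183 and 0.138 at E13.5 and 0.270 and 0.364 at E12.0, with no overlap. Ajuba over Yap1 overlapped between the stages, at 0.928 and 0.712 in E13.5 cells and 0.763 and 0.984 in E12.0 cells. Ptpn14 over Yap1 overlapped as well, at 0.310 and 0.246 in E13.5 cells and 0.236 and 0.391 in E12.0 cells. Yap1 and each gene set against it here were called lower with TMM, so these ratios largely restate the sizes of those changes. The share of all gene pairs that separate between the stages was not computed. These are ratios of reads and not of molecules, since the genes differ in length.

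With TMM scaling, 4 of the 8 Yap and Tead genes tested were lower at E13.5 and 1 was higher, with a median log2 fold change of -0.85, against 0.05 for all genes tested and -1.47 for the 7 junctional genes. Wwtr1, which encodes Taz, changed by -2.12 ± 0.28, Tead1 by -1.68 ± 0.32 and Yap1 by -1.37 ± 0.24 (SE, all called by edgeR), and on log2(TPM + 1) only the Wwtr1 call of these 3 remained, with the list's median at 0.03. Of 15 Hippo kinase genes, 5 were lower and 3 higher with a median of -0.44, which turned to 0.37 on log2(TPM + 1). Both list medians on that scale lay below the median of all genes tested there, 0.76. Over all genes tested with TMM, 23.5% were lower and 22.4% higher. Sav1 changed by -2.35 ± 0.35, Map4k4, a kinase that can phosphorylate Lats proteins, by -1.58 ± 0.34 (0.30 and not called on log2(TPM + 1)), and Taok2, a kinase upstream of the Hippo kinases, by 2.84 ± 0.31. The Lats genes, whose proteins the Ajuba family binds, were not called, with Lats1 at 0.36 ± 0.26 and Lats2 at -0.41 ± 0.28, and neither was Nf2, the gene of the junctional protein merlin, at 0.58 ± 0.24. On log2(TPM + 1), Lats1 and Nf2 were called higher, at 1.14 and 1.77.

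Of 7 genes for angiomotin turnover, 1 was higher, none was lower and 6 did not pass, with a median of 0.18, while 6 were higher on log2(TPM + 1). The higher one was Tnks, which encodes a tankyrase that marks angiomotins for degradation in human cells, at 1.06 ± 0.25 (0.90 and not called without E12.0 replicate 1, edgeR adjusted p = 0.0652). Of 16 junction partners, 5 were higher and 2 lower, with a median of 0.41, while 11 were higher and 1 lower on log2(TPM + 1), with a median of 1.30. Over all genes tested on log2(TPM + 1), 42.7% were higher and 13.1% lower, with a median of 0.76. Ctnnb1, the β-catenin gene, changed by -2.38 ± 0.26, Patj, a tight junction scaffold that binds angiomotins, by 1.77 ± 0.29, and Jup, the plakoglobin gene, by 1.71 ± 0.30. These 3 calls also held on log2(TPM + 1).

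Of 4 phosphatases related to Ptpn14 or found at junctions, Ptpn13 rose by 2.21 ± 0.30, Ptpn3 changed by -1.55 ± 0.58 (edgeR adjusted p = 0.0493) and Ptpn21, the nearest relative of Ptpn14, was not called at -0.49 ± 0.35. The Ptpn3 call was lost under 7 of the 11 other settings, with 0.01 on log2(TPM + 1). Of the 3 other LIM proteins of the zyxin group, Trip6, which also binds Lats kinases, was lower at -0.81 ± 0.28, a call lost under 6 of the 11 other settings and at 0.18 on log2(TPM + 1), and Zyx and Lpp were not called. Of 15 other Yap and Tead targets tested, 3 were lower, 2 higher and 10 not called. Their median was -0.47 and turned to 0.31 on log2(TPM + 1), where the median of all genes tested was 0.76. Among them the follistatin-like gene Fstl1 stood at 2.25 ± 0.28, the growth factor gene Tgfb2 at -1.89 ± 0.35, and Gadd45b, with fewer than 3 CPM in each library, at -2.46 ± 0.89, a call lost under 9 of the 11 other settings.

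**Figure D4:**
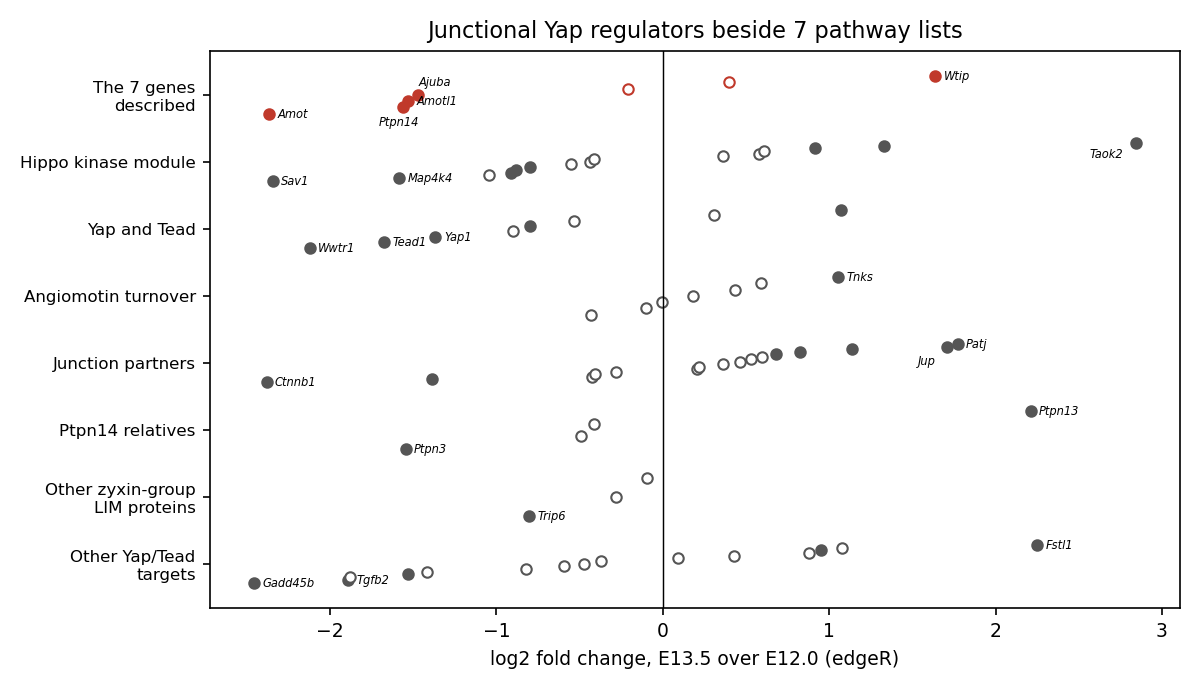
Log2 fold change (E13.5 over E12.0, edgeR) of the 7 genes (red, top row) and of the tested genes in 7 pathway lists (grey), filled where the adjusted p was below 0.05 and open where it was not. The 7 genes lie between -2.37 and 1.64, and each list but angiomotin turnover and the zyxin group has called genes on both sides of 0.

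Most open chromatin around the 7 genes was either shared or irregular between libraries. A region counted as E13.5 only when each of the 3 E13.5 libraries held a peak there and each of the E12.0 libraries lacked one, and the reverse for E12.0 only. Of the 252 ATAC regions near the 7 genes, 16 (6.35%) were E13.5 only, against 6.6% of all regions and 6.0% of those within 50 kb of a protein-coding gene, a share near the background. None was E12.0 only, against 0.054% of all regions and 0.049% of those near protein-coding genes, and 41 (16.3%) were held by all 6 libraries, against 10.1% of all regions and 12.2% of those near protein-coding genes. Of these 41, 13 lay in the Ajuba window, where 22 of the 30 regions were nearer to another gene. The E13.5 lists were longer, with 208061 to 226496 peaks against 112621 to 143817 at E12.0, and the part of list length in the 16 regions was not tested beyond an equal number of peaks per list, under which 4 of the 16 remained. Peaks of the E13.5 replicates overlapped for 68.4 to 75.2% of intervals, and those of the E12.0 replicates for 34.6 to 51.4%.

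The 16 regions comprised 7 of 87 regions around Ptpn14, 3 of 47 around Amotl1, 3 of 30 around Ajuba, 2 of 12 around Amot, 1 of 14 around Wtip and none of the 33 around Amotl2 or the 29 around Limd1. Of these, 10 were nearer to the gene than to another protein-coding gene and 7 lay inside its span, while the 3 around Ajuba were all nearer to other genes. The 4 that remained with equal lists were the 4 with the highest smallest fold (the authors' ratio of signal over local background at the summit). Shorter lists lost the weaker regions, so these 2 properties are not separate evidence. The strongest lay inside the Amotl1 span at chr9:14648053-14648998, with folds of 9.38, 8.95 and 8.84 in the 3 E13.5 libraries, above 86.9 to 90.5% of the peaks in those lists. It lay before the tabulated start, with the E13.5 replicate 2 interval at -33.998 to -33.129 kb from that start. The span itself ran from -47.97 to 73.03 kb. A further one lay 26285 bp outside Amotl1, nearer to Piwil4, at chr9:14689259-14689872, with folds of 7.77, 3.998 and 5.62. Inside Wtip, at chr7:34109872-34110753, the folds were 6.83, 4.73 and 5.43, and inside Ptpn14, at chr1:189806705-189807523, they were 4.48, 6.18 and 6.18. Thus a gene lower at E13.5 (Amotl1, Ptpn14) and the gene higher at E13.5 (Wtip) both held such a region.

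Chromatin at the starts of 5 of the 6 genes with a promoter window was open in all 6 ATAC libraries. At the Wtip window the folds were 11.4, 12.2 and 8.41 at E13.5 and 9.72, 9.98 and 6.40 at E12.0. The Ajuba window had 4.50, 6.16 and 4.73 at E13.5 and 6.41, 6.29 and 6.62 at E12.0. At the Amotl2 window they were 9.48, 8.60 and 6.22 at E13.5 and 7.24, 9.14 and 6.62 at E12.0. Folds rank peaks within a list only, so these values are not compared between libraries. The Amot window held no peak in any of the 6 libraries, and the open regions of Amot lay at the end of its span where transcription on the minus strand would begin, at chrX:145504700-145505508 and chrX:145505800-145506271, both in all 6 libraries. Over all protein-coding windows, 58.1% overlapped a region of all 6 libraries.

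One merged H3K27ac region that all 4 libraries held in part lay inside a member, Amotl1. H3K27ac marks active promoters and enhancers, and this region, chr9:14613345-14615413, had folds of 4.44 and 3.40 at E13.5 and 3.77 and 2.96 at E12.0. The promoter window itself was held by E13.5 replicate 1 and both E12.0 replicates, while the interval of E13.5 replicate 2 lay 1.204 to 1.503 kb after the start, joined to the others by merging. A second region of all 4 libraries lay in the Amotl1 window but over Kdm4d. Together they made 2 of 151 regions (1.32%), against 1.97% of all regions and 2.48% of those within 50 kb of a protein-coding gene. At or beside the starts of Amotl2 and Ptpn14, 3 of the 4 libraries likewise held a peak, without E13.5 replicate 2, with folds of 6.01 at E13.5 and 5.46 and 4.04 at E12.0 for Amotl2, and 8.97 at E13.5 and 7.96 and 4.31 at E12.0 for Ptpn14. None of the 151 regions was E13.5 only, against 1.4% of all regions and 1.33% of those near protein-coding genes. E12.0 only were 2 regions, against 0.877% of all and 1.03% of those near protein-coding genes, both in the Ptpn14 window and nearer to Cenpf or Smyd2. Only 10.8 to 25.2% of intervals overlapped between H3K27ac replicates, so a region missing from 1 list carries little weight.

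The Tead libraries analysed here came from E12.0 cells only, so no stages can be compared. Of the 71 Tead regions near the 7 genes, 2 (2.82%) were held by both libraries, against 2.12% of all Tead regions and 2.28% of those within 50 kb of a protein-coding gene, and both lay in the Limd1 window. The one inside Limd1, chr9:123496195-123496893, had folds of 2.57 and 2.36, above 24.4 and 66.9% of the peaks in the 2 lists. It overlapped an ATAC region of all 6 libraries, as did 57.6% of the 1590 Tead regions of both libraries. The other, chr9:123461739-123462300, lay 16361 bp from Limd1 and inside Lars2, which encodes a mitochondrial leucyl-tRNA synthetase. Its folds of 15.1 and 9.28 were above 99.97 and 99.98% of the peaks in the lists. The ATAC peaks there were among the strongest of their lists too, and whether the Tead signal at this site reflects binding was not tested.

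**Figure D5:**
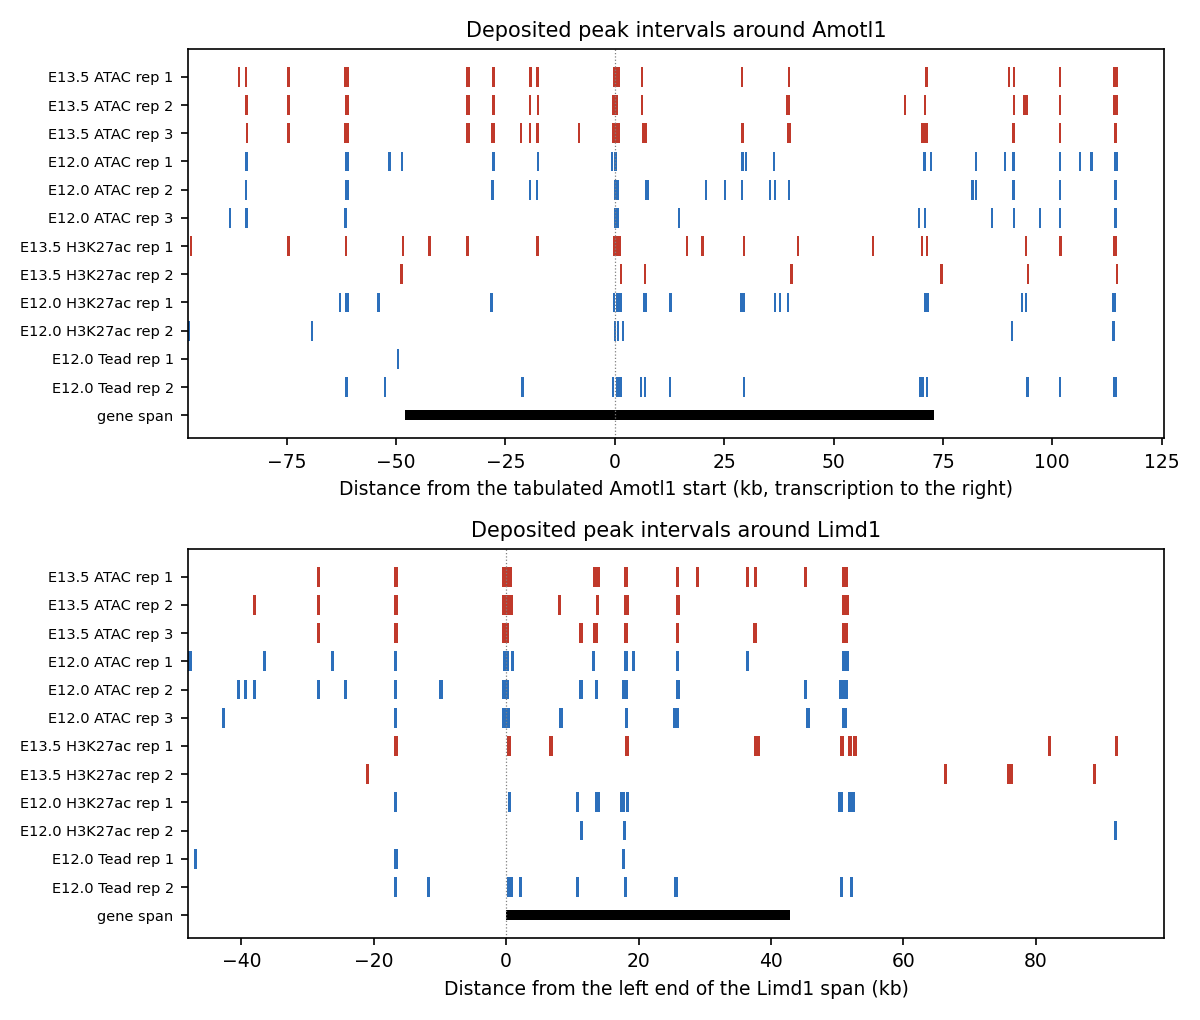
Deposited peak intervals of each library around Amotl1 (top) and Limd1 (bottom), by distance in kb from the tabulated Amotl1 start or from the left end of the Limd1 span, with E13.5 libraries red, E12.0 libraries blue and the gene span black. The start of Amotl1 holds peaks in all 6 ATAC libraries, and the Tead libraries share 2 regions around Limd1, 1 inside it and 1 on its left.

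At the starts of the genes, Tead peaks came from a single library. Replicate 2 alone held peaks over the windows of Ajuba (fold 4.03, summit 565 bases before the start) and Amotl1 (2.43, summit 361 bases before the start). The same library held peaks beside the windows of Amotl2 (4.31), Ptpn14 (3.71) and Amotl1 (3.55), and no Tead peak lay inside Wtip, whose window held the most CATTCC matches. Neither Tead library held a peak inside Amot. Replicate 1 was prepared with the KAPA HTP kit and replicate 2 with the Accel 2S Plus kit, and 2.86 and 8.82% of intervals were shared between them (of the longer and the shorter list), so kit and replicate cannot be told apart. Among all protein-coding promoter windows, a Tead region of both libraries overlapped 1.87% of those with CATTCC and 2.50% of those without.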

How the data were processed

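RNA, ATAC, H3K27ac and Tead libraries of sorted mouse cochlear progenitors were used, 16 in all, grouped by the ages and replicate numbers in their titles. The RNA tables hold expected counts per gene, which can be fractions of reads, as deposited by the authors, and the deposited effective lengths gave TPM. Peak lists were deposited per library, without pooling, each peak with its fold (a ratio), −log10 p and −log10 q as deposited by the authors. A deposited score was left out. STAR, UMI-tools and MACS2 are listed in the submitters' processing notes without versions, beside GRCm38 and mm10, names of 1 assembly. Peaks reached down to a deposited −log10 p of 2.00 to 2.51 by library, a permissive limit.

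Expected counts were rounded, filtered with filterByExpr and scaled by TMM. The 2 E13.5 and 2 E12.0 libraries were compared by the quasi-likelihood F test of edgeR 4.0.16 (R 4.3.3) with no covariate, and p-values were adjusted over 15982 genes by Benjamini and Hochberg's method. Symbols matched 48349 of 48709 identifiers. A count of 10 reads equalled 0.424 to 1.38 CPM. Alternatives were DESeq2 1.42.0, RLE scaling, limma 3.58.1 on log2(TPM + 1) or log2(TPM + 0.1), no filter, a replicate block, no mitochondrial genes and leaving out each library. The edgeR step was tested on simulated data. The replicates of a stage were distinct libraries, since their counts differed with a chi-square of 52.4 per degree of freedom at E13.5 and 31.1 at E12.0. Expected counts of reads shared with similar genes are estimates.

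Intervals of all libraries of an assay were merged, and an overlap of 1 bp placed a library in a region. Gene spans and promoter windows came from RefSeq tables of GRCm38.p6; with no genome or exon table used here, exons and introns were not separated. The genes, lists and tests were chosen with earlier results of these data known. From each list, up to 3 called genes with the largest change were named, with Yap1, Wwtr1, Lats1, Lats2, Tead1 and Nf2; other genes were named after their values were seen.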

Additional observations from a re-analysis of the deposited data

How the results depend on the processing

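The 4 lower and 1 higher calls among the 7 genes were found under each of the 9 alternatives on counts, with the same 5 genes, leaving out each RNA library and DESeq2 included. With limma on log2(TPM + 1) and on log2(TPM + 0.1) 1 was lower in each and 2 were higher in each, and the log2 fold change of Amotl2 turned to 0.53 and 0.55; the cause was not tested. Same-numbered RNA replicates did not deviate together (r = 0.008 over 15982 genes), and the replicate block gave 4 lower and 1 higher of the 7 genes and 3440 higher and 3698 lower calls over all genes, against 3579 and 3761.

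ATAC regions of E13.5 only near the 7 genes numbered 16. They were 5 with equally long lists, 8 within 10 kb and 17 to 28 with 1 library left out, the 28 without E12.0 replicate 2. The 5 were counted among the 158 regions of the equally long lists, and are not the 4 of the 16 that remained. Regions of E12.0 only numbered 0, and 0 to 3 with 1 library left out, with 3 when E12.0 replicate 3 was left out and 1 when E12.0 replicate 1 or replicate 3 of E13.5 was. The H3K27ac count for E12.0 was 2. It was 1 at −log10 q of at least 2, 0 within 10 kb, and 2 to 34 with 1 library left out, with 16 and 34 without E12.0 replicate 1 and 2, and 10 without E13.5 replicate 1. For E13.5 it was 0, and 0 to 42 with 1 library left out, with 15 and 42 without E13.5 replicate 1 and 2, and 2 without E12.0 replicate 1. Tead regions of both libraries numbered 2. They were 1 at −log10 q of at least 2, 1 within 10 kb, and 67 and 6 in replicate 2 and replicate 1 taken alone. Peak counts therefore describe these lists, and 2 libraries per stage limit the RNA comparison.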

Other observations

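Genes that lie within 50 kb of the 7 moved in both directions. Of 14 such neighbours 10 were tested, with 2 higher at E13.5, 3 lower and 5 not called, and none lay near Amot or Amotl2. Over all genes tested 22.4% were higher and 23.5% lower, so the neighbours' counts lie near the background. Smyd2, a lysine methyltransferase gene 3797 bp from Ptpn14, had 39.2 and 44.0 CPM at E13.5, against 9.35 and 7.42 CPM at E12.0, which is 2.31 ± 0.35 on the log2 scale (SE, edgeR adjusted p = 0.000499), opposite in sign to Ptpn14. On the other side of Ptpn14, Cenpf, a kinetochore protein gene, changed by -2.13 ± 0.31 (SE). Sacm1l, a phosphoinositide phosphatase gene near Limd1, changed by 1.07 ± 0.28, and Haus4 near Ajuba by -1.75 ± 0.59.

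Lars2, on the other side of Limd1, had 70.5 and 102.6 CPM at E13.5, against 609 and 1042 CPM at E12.0, or -3.25 ± 0.34 on the log2 scale (SE, edgeR adjusted p = 5.81e-05). It was named after its values were seen. The region inside Lars2 that both Tead libraries held was among the strongest peaks of several assays. Its ATAC interval had the same borders in each E12.0 library, -16.932 and -16.413 kb from the left end of the Limd1 span. In E13.5 replicate 1 the borders were -16.940 and -16.404 kb, and in E13.5 replicate 2 they were -16.940 and -16.409 kb. E13.5 replicate 3 had borders of -16.932 and -16.407 kb. Whether the signal there comes from this site or from reads of similar sequence elsewhere was not tested. Its ATAC folds were 16.01, 17.9 and 14.3 in E13.5 cells and 22.2, 21.96 and 18.1 in E12.0 cells, each above at least 97.1% of its list. H3K27ac peaks there came from replicate 1 of each stage only, with folds of 5.13 for E13.5 and 14.8 for E12.0. The Lars2 counts and the mt-Rnr2 share were both higher at E12.0. Within each stage, replicate 2 had the higher Lars2 CPM and the lower mt-Rnr2 share. Whether Lars2 counts and mt-Rnr2 share are related was not tested.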
